A study of Mus musculus with 12 samples.

Results

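The genes of the synaptic vesicle and its release machinery were followed in the neonatal mouse central nervous system. The set holds 38 genes chosen by symbol. Of these, 37 had a probe set that the platform annotation assigns to that symbol alone, out of 18193 such genes on the array, and Slc17a8 had none. Where a gene had several probe sets, the one with the highest mean signal over the 12 samples was taken, without regard to group. A filter on dim probe sets asked for a mean of the normalized log2 values of at least 8.72. This cut is equivalent to a signal of 406, but it was applied to the mean on the log2 scale and not to the mean signal. After this filter, 36 of the 37 genes were tested among 12600 genes, and Slc17a7 lay below it.

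Total RNA came from tissue labelled brain, hindbrain and spinal cord, and each of 12 samples was read on its own Affymetrix array. There were 4 groups of 3 samples: NR3B knockout at postnatal day 5 (P5), wild type at P5, NR3B knockout at birth (P0) and wild type at P0. NR3B, encoded by Grin3b, is a subunit of NMDA receptors, which are glutamate-gated cation channels. The labels give neither strain, sex, the deleted stretch of the gene nor whether a sample is a single animal or a pool, so each p-value rests on the spread among arrays, which may be partly technical.

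Neurotransmitter is stored in synaptic vesicles, which dock at the active zone of the nerve terminal and fuse with the plasma membrane when calcium enters. Fusion is driven by SNARE proteins on the vesicle (Vamp1, Vamp2) and on the plasma membrane (Stx1a, Snap25), timed by calcium-binding synaptotagmins and complexins, and prepared by scaffold proteins such as Bsn, Pclo and the Rims proteins. Vesicle membrane is then retrieved by endocytosis through dynamin, amphiphysin, endophilin and synaptojanin. In rodents, the first days after birth are a time in which synapses form in the brainstem, spinal cord and cerebellum.

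The labels and the tissue were checked first. The deposited signal of the only Grin3b probe set was 39.7 to 48.5 in P5 knockout samples and 155 to 273 in P5 wild-type samples, and 31.4 to 96.9 in P0 knockout samples against 198 to 353 in P0 wild-type samples. The posterior gene Hoxb3 averaged 3813 in P5 knockout, 3813 in P5 wild type, 8180 in P0 knockout and 8035 in P0 wild type (normalized signal). Of 20 listed forebrain genes, 18 had a probe set and 10 lay above the filter, among them the cortical gene Neurod6 at 4105 in P5 knockout, 3412 in P5 wild type, 3901 in P0 knockout and 3854 in P0 wild type, while Emx1 and Tbr1 lay below it. Samples of a group lay closer together at P5, where the median within-group SD of the members was 0.0967 in knockout and 0.111 in wild type on the log2 scale, against 0.163 in knockout and 0.262 in wild type at P0. The 18S control probe set read 7728 in P0 wild-type sample 1 and between 48911 and 110510 elsewhere. The ratio of 3' to 5' control signal for actin was 1.48 in P0 wild-type sample 3 and 1.58 in P0 knockout sample 3, and 1.19 to 1.28 elsewhere. For the transferrin receptor it was 5.15 in P0 wild-type sample 3 and 2.66 to 4.49 elsewhere. The part of these array differences in the results was not tested. Xist, which is transcribed in females, averaged 7076 in P5 knockout, 92 in P5 wild type, 12395 in P0 knockout and 14400 in P0 wild type, so its level was uneven over the groups, and its part in the results was not tested.

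Between birth and P5 the release machinery moved downward more often than upward. Of the 36 members tested, 11 were lower at P5 (30.6%), against 15.1% of all genes tested, and 3 were higher (8.33%), against 14.6% of all genes tested, in limma's moderated test of the average over both genotypes with a Benjamini-Hochberg adjusted p under 0.05. The median log2 difference, P5 minus P0, was -0.21 over the members and 0.00 over all genes, with 22 members below zero and 14 above. The 6 P5 samples did not overlap with the 6 P0 samples in 9 members, and 15.2% of all genes tested separated in that way. In RNA from whole tissue, fewer cells of a type and less RNA per cell cannot be told apart. Without P0 wild-type samples 1 and 2, 14 members were lower and 6 higher, 20 of 36 in all, against 34.3% of all genes in that fit.

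**Figure D1:**
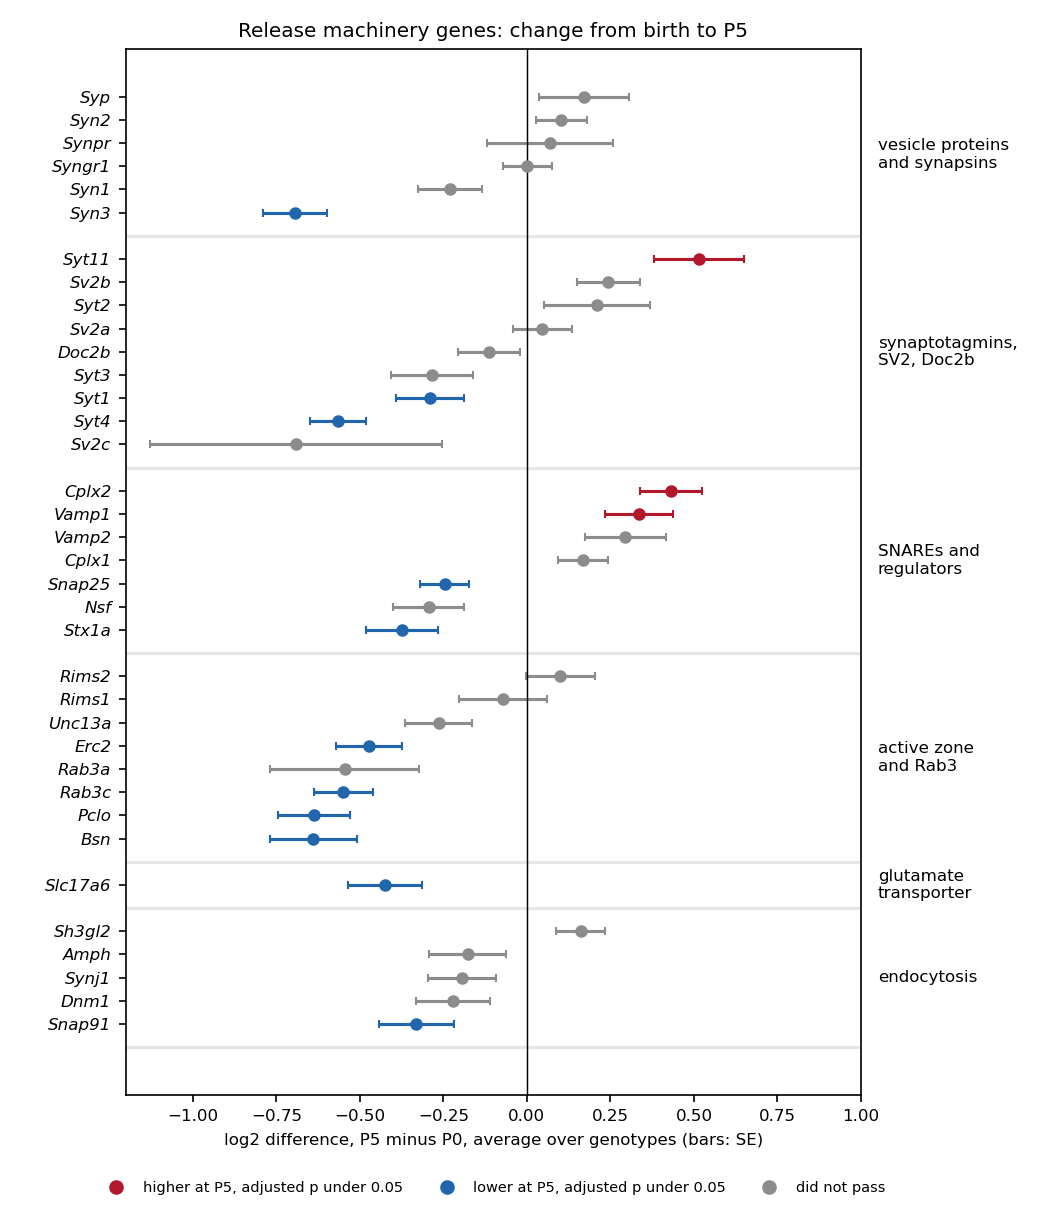
Log2 difference, P5 minus P0, averaged over genotypes, for the 36 genes tested, grouped by role; points are estimates and bars their SE. The 3 genes that were higher at P5 are red, the 11 that were lower are blue, and 4 of the lower ones belong to the active zone and Rab3 group.

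The active zone and its Rab3 GTPases held the largest number of falls of any role. Of 8 genes in this role, 4 were lower at P5 and none higher, and the median log2 difference was -0.51. The lower genes were Bsn, Pclo, Rab3c and Erc2. For this role and those that follow, the shares over all genes tested were 15.1% lower and 14.6% higher. Bassoon and Piccolo, encoded by Bsn and Pclo, are very large scaffold proteins of the active zone, Erc2 encodes a scaffold protein that binds them, and Rab3c is a vesicle GTPase.

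Bsn had normalized signals of 2239, 2306 and 2105 in P5 knockout samples and 2385, 2412 and 2771 in P5 wild-type samples, against 3070, 3409 and 4213 in P0 knockout samples and 5149, 3733 and 2955 in P0 wild-type samples. Every P5 sample lay below every P0 sample, although the lowest P0 wild-type sample was close to the highest at P5. The log2 difference was -0.64 (SE 0.13), or 1.56-fold lower, with a limma adjusted p of 0.00261. Pclo read 4739, 4293 and 5057 in P5 knockout and 5076, 4277 and 5661 in P5 wild type, against 8061, 6157 and 6853 in P0 knockout and 7584, 7305 and 9594 in P0 wild type. The groups of the 2 ages were again apart in each genotype. Its log2 difference was -0.64 (SE 0.107), also 1.56-fold lower, with an adjusted p of 0.000727 in limma.

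Rab3c fell with a narrower spread at P5 than at P0 in the normalized signals. These signals were 19042, 17836 and 17395 in P5 knockout and 20944, 18454 and 21549 in P5 wild type, against 29616, 24342 and 26079 in P0 knockout and 33018, 25443 and 30677 in P0 wild type. The deposited signals of wild type were not narrower at P5, at 18194 to 21180 against 26962 to 29251 at P0. The log2 difference was -0.55 (SE 0.0883), or 1.46-fold lower (limma adjusted p = 0.000533), and -0.29 with the mean of all its probe sets (adjusted p = 0.0638). Erc2 read 16521, 13381 and 15314 in P5 knockout and 15300, 16012 and 16081 in P5 wild type, against 18790, 18708 and 19459 in P0 knockout and 27192, 18937 and 27100 in P0 wild type. Its difference of -0.47 (SE 0.099), 1.39-fold, passed with an adjusted p of 0.0032 in limma, and P0 wild-type samples 1 and 3 stood well above the other 4 samples of that age.

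The other 4 genes of this role did not pass. Unc13a, whose product Munc13-1 primes vesicles for fusion, differed by -0.26 (SE 0.1; limma adjusted p = 0.0613). Rims1 and Rims2, which encode scaffolds that bind calcium channels and Rab3, differed by -0.07 (SE 0.132) and 0.10 (SE 0.102). Rab3a, the most studied Rab3 GTPase of nerve terminals, differed by -0.55 (SE 0.224; limma adjusted p = 0.0824), and its signals ran from 13581 to 27789 over the P5 samples and from 20658 to 44389 over the P0 samples. Another Rab3a probe set differed by 0.09 (SE 0.118), so the probe sets of that gene did not move alike.

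The stretches upstream of Bsn and Pclo are shown because these paired scaffolds fell together and share a motif, that of Vamp1 for contrast as a gene that rose, and that of Syn1 for its RE1 match, found in no other member with a window. The sequences are from the RefSeq table of promoters (mouse build GRCm38.p6), which held 300-base windows for 32 of the 38 members. The search covered the 250 bases before each annotated start on both strands, and bases that fall inside the span of the RefSeq gene were left off. Capitals mark matches. Bsn (chr9:108190420-108190533, minus strand) and Pclo (chr5:14514768-14514905, plus strand) end 37 and 13 bases before their starts and carry GCGCANGCGC, the sequence bound by NRF1; in Pclo the capitals also mark 2 GC boxes (GGGCGG), of which the second shares a base with the NRF1 match. Vamp1 (chr6:125215431-125215580, plus strand) shows a GC box and a CCAAT box, the CCAAT letters lying on the opposite strand. Syn1 (chrX:20921019-20921168, minus strand) shows the core of RE1, the element bound by the repressor REST, with 1 mismatch, and after it a cyclic AMP response element (TGACGTCA). Its stretch lies farther upstream than the others, from 250 to 101 bases before the start.
Bsn: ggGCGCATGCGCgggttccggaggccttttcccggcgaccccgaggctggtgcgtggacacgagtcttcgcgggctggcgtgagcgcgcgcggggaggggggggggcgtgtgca
Pclo: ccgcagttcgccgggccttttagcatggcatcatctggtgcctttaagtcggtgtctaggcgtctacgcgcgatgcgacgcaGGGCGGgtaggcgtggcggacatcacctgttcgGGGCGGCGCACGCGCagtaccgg
Vamp1: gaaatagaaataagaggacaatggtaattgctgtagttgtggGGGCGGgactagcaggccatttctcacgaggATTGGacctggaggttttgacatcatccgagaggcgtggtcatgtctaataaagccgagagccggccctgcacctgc
Syn1: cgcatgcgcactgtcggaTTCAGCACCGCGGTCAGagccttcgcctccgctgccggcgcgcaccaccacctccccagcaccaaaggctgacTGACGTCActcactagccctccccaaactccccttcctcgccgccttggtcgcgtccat

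The NRF1 sequence occurred in 2 of the 8 lower members that had a window (Bsn and Pclo), in none of the 3 higher members, in 2 of the other 21 (Nsf and Syp) and in 3.74% of all 32851 windows. The GC box occurred in 6 of the 8 lower members, in 2 of the 3 higher members, in 14 of the other 21 and in 32.7% of all windows. The RE1 core with at most 2 mismatches was found in Syn1 alone among the members with a window and in 0.107% of all windows. CCAAT occurred in 3 of the 8 lower members, in 1 of the 3 higher, in 4 of the other 21 and in 33.8% of all windows. TATAAA was present in Sv2b alone among the members with a window and in 12.4% of all windows, and TGACGTCA in Sh3gl2 and Syn1 and in 1.55% of all windows. A member was counted if any of its windows matched, while the share over all windows counts each window, so the 2 are unlike measures. The 8 lower members had 10 windows, the 3 higher members 3 and the other 21 members 30. Median GC content was 58.8% in windows of lower members, 50.8% in those of higher members and 61.8% in the others, against 52.4% in all windows. These matches describe letters in a window and are not binding sites.

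Among the vesicle membrane proteins and synapsins, 1 of 6 was lower and none was higher. This was Syn3, a synapsin, a family of phosphoproteins that tether vesicles to each other in the terminal. Syn3 read 7289, 6032 and 6480 in P5 knockout and 5914, 6606 and 7133 in P5 wild type, against 9848, 9322 and 10500 in P0 knockout and 11310, 9797 and 13384 in P0 wild type. The ages did not overlap, and the log2 difference of -0.69 (SE 0.0957), 1.62-fold, was the largest fall in the set among genes that passed (limma adjusted p = 0.00016). Its other 2 probe sets differed by -0.79 (limma adjusted p = 7.23e-05 over all probe sets above the filter) and by -0.66 (adjusted p = 0.254).

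The other synapsins did not pass: Syn1 differed by -0.23 (SE 0.0967) and Syn2 by 0.10 (SE 0.0761). Syp, which encodes the abundant vesicle protein synaptophysin, differed by 0.17 (SE 0.134). Its relatives Synpr and Syngr1 differed by 0.07 (SE 0.189) and 0.00 (SE 0.0739), and Synpr ran from 7353 to 20828 over the P0 wild-type samples alone. Without P0 wild-type samples 1 and 2 the Synpr difference was -0.34 and passed (limma adjusted p = 0.0163). The sign of the Syngr1 difference turned to -0.01 with the deposited scaling.

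Of the 9 synaptotagmins, SV2 proteins and Doc2b, 2 were lower and 1 higher. Syt4, a synaptotagmin known from dense-core and other transport vesicles, read 18799, 18855 and 17369 in P5 knockout and 16960, 18915 and 19174 in P5 wild type, against 28142, 25917 and 26723 in P0 knockout and 26398, 24267 and 31934 in P0 wild type. The 2 ages were far apart relative to the spread within them, at -0.57 (SE 0.0832) on the log2 scale or 1.48-fold lower (limma adjusted p = 0.00027). Its second probe set fell by 0.74 on the log2 scale.

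Syt11, a relative of Syt4, moved the other way. It read 16945, 15636 and 18202 in P5 knockout and 18618, 16869 and 15884 in P5 wild type, against 11001, 14596 and 15304 in P0 knockout and 8213, 14791 and 9452 in P0 wild type. The highest P0 values came near the lowest P5 values, but no samples of the 2 ages overlapped. The log2 difference was 0.51 (SE 0.135), or 1.43-fold higher (limma adjusted p = 0.0122), the largest rise among the members tested. Its other 4 probe sets differed by 0.21 to 0.25 and did not pass, and the mean of all 5 gave 0.29, which passed.

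Syt1, the calcium sensor of fast release in forebrain neurons, read 32629, 33215 and 29819 in P5 knockout and 31818, 32889 and 33956 in P5 wild type, against 40212, 31666 and 32418 in P0 knockout and 56152, 37969 and 43642 in P0 wild type. The P5 samples overlapped with 2 of the P0 knockout samples. The difference of -0.29 (SE 0.101), 1.22-fold, passed narrowly (limma adjusted p = 0.0441) and passed in 9 of 22 alternative settings, being lost on leaving out any single sample except P0 knockout sample 2 and P0 wild-type sample 2. Syt2, the related sensor used in brainstem and spinal cord, read 3230, 3072 and 3050 in P5 knockout and 3752, 3838 and 2872 in P5 wild type, against 2949, 2044 and 3009 in P0 knockout and 4491, 2826 and 2268 in P0 wild type. The wild-type ages overlapped and the knockout ages did not, and Syt2 differed by 0.21 (SE 0.159) without passing.

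The remaining genes of this role did not pass. Syt3, another calcium-binding synaptotagmin, differed by -0.28 (SE 0.123) and Doc2b, a calcium sensor linked to spontaneous release, by -0.11 (SE 0.0935). The vesicle glycoproteins Sv2a and Sv2b differed by 0.05 (SE 0.0894) and 0.24 (SE 0.0938; limma adjusted p = 0.0652). Sv2c had the widest spread of the set, from 266 to 2223 over the 12 samples, and a difference of -0.69 with an SE of 0.437.

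The SNARE proteins and their regulators were split, with 2 of 7 higher and 2 lower at P5. Cplx2 encodes a complexin, a small protein that binds the assembled SNARE complex. It read 9181, 9168 and 8517 in P5 knockout and 8542, 10130 and 8977 in P5 wild type, against 5651, 7643 and 7433 in P0 knockout and 7032, 6259 and 6530 in P0 wild type. All 6 P5 samples lay above all 6 P0 samples, and the difference was 0.43 (SE 0.0932), 1.35-fold (limma adjusted p = 0.00386). Both other Cplx2 probe sets rose, by 0.71 and 0.61 on the log2 scale, with limma adjusted p of 0.0113 and 0.000742.

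Vamp1, the vesicle SNARE that prevails in brainstem and spinal cord, read 11307, 12913 and 11771 in P5 knockout and 13648, 13291 and 12939 in P5 wild type, against 11213, 8681 and 11246 in P0 knockout and 10864, 10530 and 7946 in P0 wild type. The gap between the ages was small in the knockout, where the lowest P5 sample stood just above the highest at P0. The difference was 0.34 (SE 0.101), 1.26-fold (limma adjusted p = 0.0234), and it passed in 16 of 22 alternative settings. The call was lost on leaving out sample 2 of the P0 or P5 knockout, sample 3 of P0 wild type, or sample 1 or 2 of P5 wild type (limma adjusted p from 0.0503 to 0.0614), and with the mean of both probe sets, where the difference was 0.17. The second Vamp1 probe set, which is dimmer, differed by 0.01 (SE 0.195).

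Stx1a, the plasma membrane SNARE syntaxin 1A, read 11301, 8785 and 10022 in P5 knockout and 10833, 12024 and 11385 in P5 wild type, against 14403, 15848 and 13671 in P0 knockout and 10998, 16678 and 12267 in P0 wild type. The knockout ages were apart and the wild-type ages overlapped. The average difference was -0.37 (SE 0.107), 1.3-fold lower (limma adjusted p = 0.0188), and the other Stx1a probe set fell by 0.38 on the log2 scale (limma adjusted p = 0.0433). Without P5 knockout sample 2 the adjusted p was 0.0543. Snap25, its partner SNARE, read 45195, 48881 and 45195 in P5 knockout and 50871, 49039 and 52650 in P5 wild type, against 56956, 49952 and 53043 in P0 knockout and 64646, 56787 and 65856 in P0 wild type. P5 wild-type and P0 knockout samples overlapped. Snap25 was 1.19-fold lower, at -0.25 (SE 0.0726; limma adjusted p = 0.0219), and passed in 16 of 22 alternative settings. The call was lost on leaving out sample 1 or 3 of the P5 knockout or sample 1 or 2 of P5 wild type, with the deposited scaling, and with the mean of its probe sets, where the difference was -0.16.

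Vamp2, the main vesicle SNARE of the forebrain, differed by 0.29 (SE 0.121; limma adjusted p = 0.0814) and Cplx1 by 0.17 (SE 0.0756; limma adjusted p = 0.108). Nsf, the ATPase that takes spent SNARE complexes apart, differed by -0.29 (SE 0.106) and missed the threshold by little (limma adjusted p = 0.0509).

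**Figure D2:**
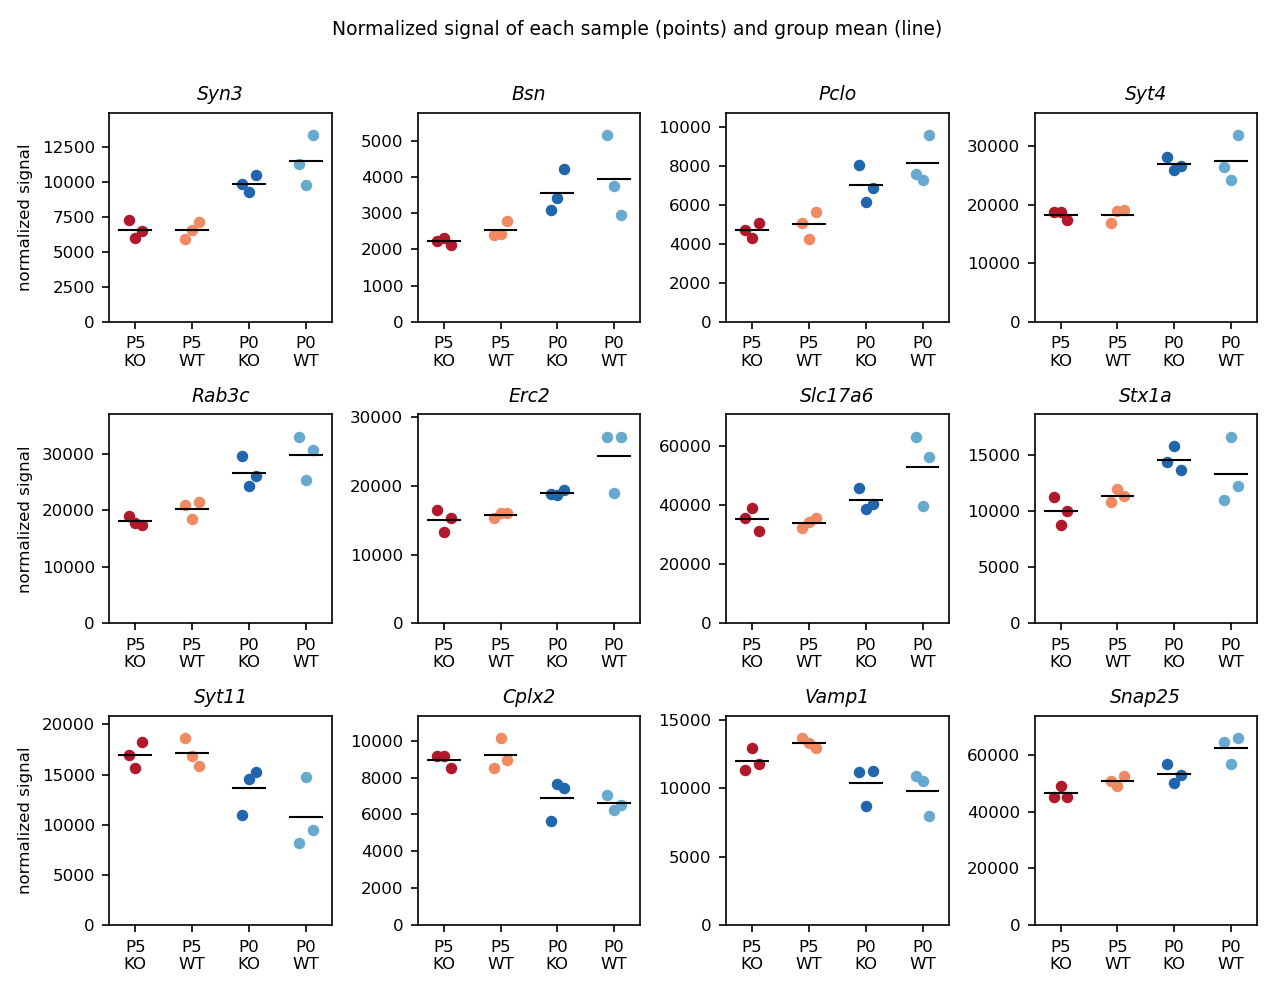
Normalized signal (linear axis from zero) of 12 genes in each sample, for P5 knockout (KO), P5 wild type (WT), P0 knockout and P0 wild type; points are samples and lines group means. Syn3, Bsn, Pclo, Syt4, Rab3c and Erc2 separate the ages downward and Syt11, Cplx2 and Vamp1 upward, while Slc17a6, Stx1a and Snap25 overlap in part.

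Vesicular glutamate transporters load glutamate into vesicles, with Slc17a6 (VGLUT2) prevailing in brainstem, spinal cord and thalamus and Slc17a7 (VGLUT1) in cortex, hippocampus and mature cerebellar granule cells. Slc17a6 read 35712, 38964 and 31203 in P5 knockout and 32267, 34352 and 35437 in P5 wild type, against 45722, 38688 and 40163 in P0 knockout and 63036, 39581 and 56213 in P0 wild type. In these normalized signals the P0 wild-type samples were the most scattered, and 1 P5 knockout sample lay within the range of P0. The deposited signals did not overlap between the ages, with a highest P5 signal of 39540 and a lowest P0 signal of 40460, both in knockout samples. Deposited signals of P0 wild type ran from 42861 to 50559. Slc17a6 was 1.34-fold lower at P5, at -0.42 (SE 0.11) on the log2 scale (limma adjusted p = 0.0116). Slc17a7 was dim throughout, with 547, 755 and 598 in P5 knockout and 551, 605 and 457 in P5 wild type, against 380, 375 and 142 in P0 knockout and 211, 130 and 158 in P0 wild type. All P5 samples were above all P0 samples, and without the filter on dim probe sets its difference was 1.38 (SE 0.261), 2.61-fold, with a limma adjusted p of 0.00206. It is not counted above.

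Of the 5 endocytosis genes, 1 was lower at P5. Snap91, the clathrin adaptor AP180, differed by -0.33 (SE 0.112), 1.26-fold (limma adjusted p = 0.0406), with 30556 to 37443 over the P5 samples and 33874 to 57681 over the P0 samples, which overlap. It passed in 11 of 22 alternative settings, and was lost without P0 knockout sample 1 or 3, P0 wild-type sample 1 or 3, P5 knockout sample 2 or 3 or any P5 wild-type sample. Dnm1, the dynamin that severs vesicles from the membrane, differed by -0.22 (SE 0.111), and Amph, its binding partner amphiphysin, by -0.18 (SE 0.115). Synj1, the lipid phosphatase synaptojanin, differed by -0.19 (SE 0.102) and Sh3gl2, endophilin A1, by 0.16 (SE 0.0736), and none of these 4 passed.

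The further probe sets of the members were read as a separate set of probes on the same arrays. The 14 members that passed had 22 other probe sets above the filter, and all 22 had the sign of the chosen one, of which 7 passed in that direction and none in the opposite one. The largest disagreement in size was in Pclo, where the dimmest probe set differed by -0.10 (SE 0.135), against -0.63 and -0.64 for the others. Members that did not pass had 23 other probe sets, of which 2 passed. These were dim probe sets of Nsf, at -0.96 (SE 0.203), and Rims2, at -0.73 (SE 0.195), and they were picked out after their values were seen.

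Related genes did not always move together, and 10 pairs were compared by the log2 ratio of their signals within each array, which shows unequal change and not which gene moved. Age labels were permuted within each genotype, giving 400 arrangements and a smallest two-sided exact p of 0.005. The ratio of Syt1 to Syt2 fell by 0.50 between birth and P5 (exact permutation p = 0.01, adjusted over the 10 pairs p = 0.0333), with means of 3.35 in P5 knockout and 3.24 in P5 wild type, against 3.71 in P0 knockout and 3.88 in P0 wild type (log2 ratio, n = 3 each). That of Syn1 to Syn2 fell by 0.33 (exact permutation p = 0.01, adjusted p = 0.0333), with means of -0.10 in P5 knockout and 0.10 in P5 wild type, against 0.25 in P0 knockout and 0.43 in P0 wild type. The ratio of Slc17a6 to Slc17a7 fell by 1.81 (exact permutation p = 0.005, adjusted p = 0.0333), but Slc17a7 is below the filter.

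The direction of the first 2 changes did not rest on the choice of probe set: the Syt1 to Syt2 ratio fell in 12 of 12 combinations of their probe sets and the Syn1 to Syn2 ratio in 4 of 4. The ratio of Cplx1 to Cplx2 differed by -0.26 (exact permutation p = 0.04, adjusted p = 0.1) and was below zero in 9 of 9 combinations. Vamp1 to Vamp2, Sv2a to Sv2b, Sv2a to Sv2c, Rims1 to Rims2, Bsn to Pclo and Syp to Synpr had adjusted p-values of 0.367 to 1 in the exact permutation test. The ratio of Bsn to Pclo differed by 0.00, with SDs of 0.183 in P5 knockout, 0.138 in P5 wild type, 0.362 in P0 knockout and 0.576 in P0 wild type.

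In each genotype on its own, fewer genes passed. In the knockout, 7 members were lower at P5 (19.4%, against 4.95% of all genes) and none higher (against 5.53%), with a median log2 difference of -0.12 over the members and -0.03 over all genes. In wild type, 9 members were lower (25%, against 8.56% of all genes) and 3 higher (8.33%, against 10.8%), with medians of -0.18 and 0.03. The 5 members called in both were Syn3, Syt4, Rab3c, Bsn and Pclo, all lower, and the share of all genes called in both is not given here. In a single genotype, the calls of these 5 passed in 17 to 23 of 23 alternative settings. Stx1a and Unc13a passed in the knockout alone, at -0.55 (SE 0.152) and -0.48 (SE 0.141), and in 14 and 11 of 23 alternative settings. Syt1, Slc17a6, Snap91, Erc2, Syt11, Cplx2 and Vamp1 passed in wild type alone.

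These lists do not show that the genotypes differ. The interaction of genotype and age passed in none of the 36 members and in 0% of all 12600 genes by limma. Only 1 member, Amph, had an unadjusted p under 0.05 in that test, as did 4.94% of all genes. With array weights estimated by limma, which put most weight within P0 wild type on sample 3, 6 members and 12.1% of all genes passed the interaction. The genotypes share no samples in this comparison, and 31 of 36 members (86.1%) had the same sign in both, against 73.5% of all genes. The counts moved with single samples, as did those over all genes. In the knockout, 4 members passed without P0 knockout sample 2, 2 without P0 knockout sample 3, 4 without P5 knockout sample 1, 1 without P5 knockout sample 2 and 0 without P5 knockout sample 3, while 5.18% to 7.71% of all genes passed in these 5 fits. In wild type, 7 passed without P0 sample 1, 6 without P0 sample 3, 6 without P5 sample 1, 4 without P5 sample 2 and 6 without P5 sample 3, against 12 with all samples, while 9.52% to 11.4% of all genes passed in these 5 fits.

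**Figure D3:**
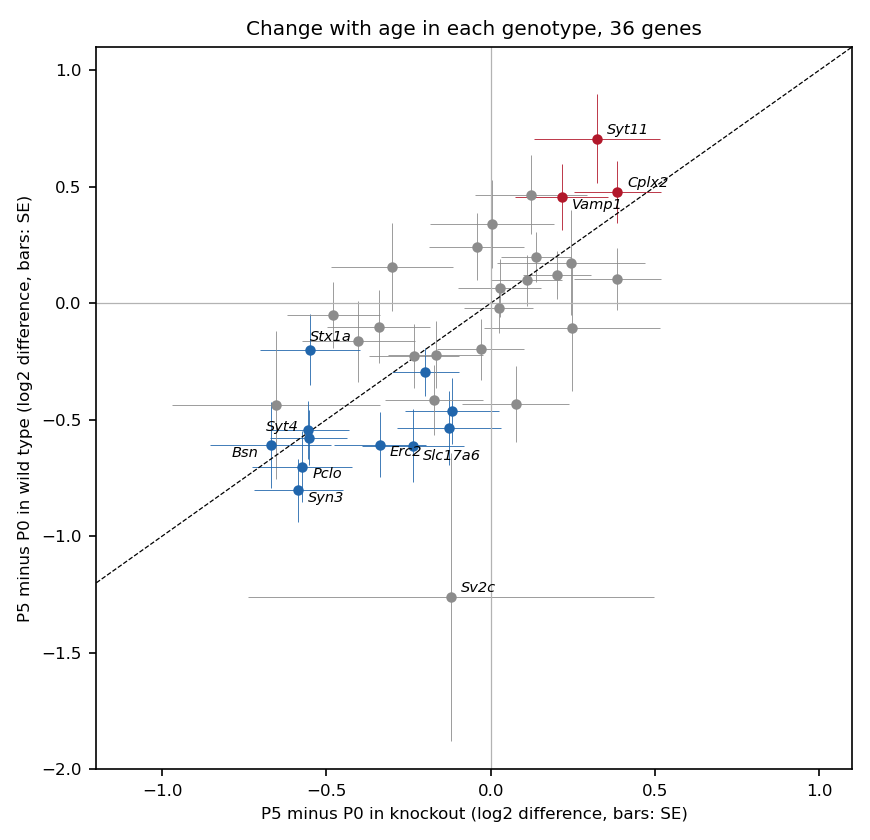
Log2 difference, P5 minus P0, in knockout samples (horizontal) and in wild-type samples (vertical) for the 36 genes, with SE bars; the dashed line marks equal change. Red and blue points passed in the average over genotypes as higher and lower, and 31 of 36 genes have the same sign on both axes.

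A wider list of 101 other genes of the vesicle cycle, of which 93 had a probe set and 90 were tested, was counted in the same way. Averaged over genotypes, 25 were lower at P5, 8 higher and 57 did not pass, with a median of -0.15. Of all genes tested, 15.1% were lower and 14.6% higher. Among those that passed, the 5 largest falls were in Rims3, a small relative of the Rims scaffolds (-0.89, SE 0.12), Cacna1b, the pore of N-type calcium channels that trigger release (-0.86, SE 0.127), Sncg, gamma-synuclein (-0.81, SE 0.175), Slc18a3, the vesicular acetylcholine transporter of motor neurons (-0.80, SE 0.143), and Svop, a vesicle protein related to SV2 (-0.70, SE 0.111). The 5 largest rises among those that passed were in Cadps2, a priming factor of dense-core vesicles known from cerebellar granule cells (1.47, SE 0.114), Syngr2 (0.54, SE 0.12), Snap23 (0.53, SE 0.124), Sypl (0.47, SE 0.079) and Vamp4 (0.38, SE 0.106). The last 4 encode relatives of synaptogyrin, SNAP-25, synaptophysin and VAMP2 that many cell types outside the nervous system also use.

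Markers of cell types and regions moved with age beside these genes. Their counts stand beside shares of 15.1% lower and 14.6% higher over all genes tested. Of 18 pan-neuronal genes, 13 were lower at P5 and 1 higher, with a median of -0.34, and their summed signal was 655804 to 687620 in P5 knockout and 658714 to 716543 in P5 wild type, against 788540 to 938657 in P0 knockout and 867451 to 959575 in P0 wild type. Of 21 Hox genes tested, which mark hindbrain and spinal cord, 17 were lower and none higher, with sums of 36785 to 41640 in P5 knockout and 41841 to 42865 in P5 wild type, against 68382 to 92672 in P0 knockout and 57471 to 97586 in P0 wild type. Both sums were lower in every P5 sample than in any P0 sample.

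Other lists went up, while 14.6% of all genes tested were higher and 15.1% lower. All 12 oligodendrocyte genes tested were higher at P5 (median 1.89), with sums of 297511 to 330611 in P5 knockout and 317653 to 340148 in P5 wild type, against 93934 to 107957 in P0 knockout and 96613 to 117317 in P0 wild type. Of 12 genes of cerebellar granule and Purkinje cells, 11 were higher and 1 lower (median 1.57), with sums of 211519 to 223694 in P5 knockout and 217450 to 224005 in P5 wild type, against 108084 to 123361 in P0 knockout and 103418 to 121834 in P0 wild type. Of 13 astrocyte genes 9 were higher and none lower, of 11 progenitor and cycling-cell genes 8 and none, of 12 microglial genes 9 and 1, of 14 meningeal, pericyte and fibroblast genes 7 and none, and of 9 endothelial genes 4 and none. Of 8 inhibitory neuron genes 1 was higher and 2 lower, of 10 forebrain genes tested 3 and 1, and of 4 red blood cell genes 2 and none. The summed signal of the 18 forebrain genes with a probe set was higher in every P5 sample than in any P0 sample. It was 65390 to 74277 in P5 knockout and 63280 to 67307 in P5 wild type, against 34100 to 36533 in P0 knockout and 35964 to 38323 in P0 wild type. The forebrain genes tested did not rise alike: their median log2 difference was 0.36, from -0.85 in Bcl11b to 1.65 in Zbtb18. The part of these shifts in the differences of the release genes was not tested.

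**Figure D4:**
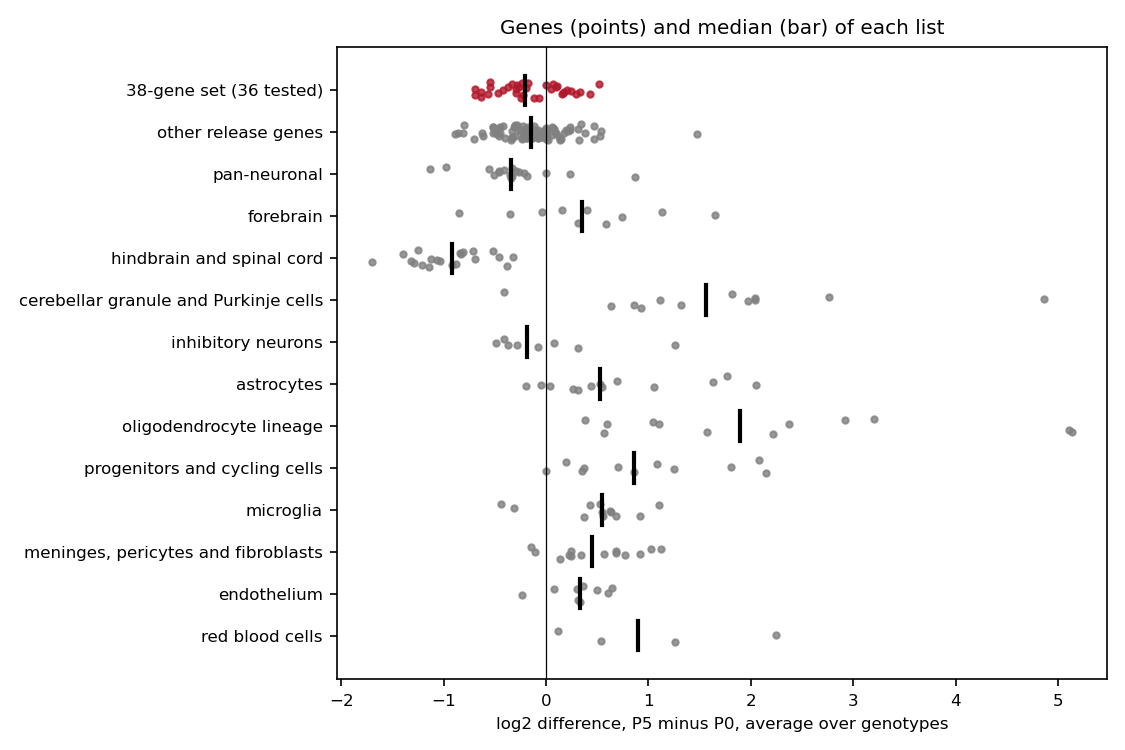
Log2 difference, P5 minus P0, averaged over genotypes, of each gene tested (points) and the median (bar) for the release machinery set (red, top) and the comparison lists (grey). The set and the other release genes have medians of -0.21 and -0.15, between the pan-neuronal genes at -0.34 and the cerebellar and oligodendrocyte genes at 1.57 and 1.89.

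Loss of NR3B was set against wild type at each age. At P5 no member passed, against 0.00794% of all genes tested. No member had an unadjusted p under 0.05 in limma's test there, against 1.85% of all genes. The median log2 difference, knockout minus wild type, was -0.05 over the members and 0.01 over all genes, and 28 of 36 members lay below zero. At P0 no member passed, against 0.0238% of all genes. There, 5 members had an unadjusted p under 0.05, as did 16.1% of all genes, and the medians were -0.11 over the members and 0.07 over all genes, or -0.03 and 0.04 with the deposited scaling. In the average over both ages no member passed either, against 0.0238% of all genes, with medians of -0.07 and 0.04. In that average, 4 of 36 members had an unadjusted p under 0.05 in limma's test, as did 8.63% of all genes.

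The 4 members with the smallest p in that average were Snap25, Sv2b, Syn1 and Syt1, all lower in the knockout, each with an adjusted p of 0.576 by limma. Snap25 differed by -0.18 (SE 0.0726), and its normalized signals, given above, did not overlap between the genotypes at P5 but did at P0. Its deposited signals did overlap at P5, at 43199, 50003 and 48169 in knockout against 51602, 48784 and 51058 in wild type. Sv2b read 10736, 11106 and 11570 in P5 knockout against 11758, 12554 and 11238 in P5 wild type, and 8760, 8084 and 8724 in P0 knockout against 13241, 9015 and 11229 in P0 wild type. The P0 genotypes were apart, the P5 genotypes overlapped, and the average difference was -0.23 (SE 0.0938).

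Syn1 read 9888, 10295 and 9017 in P5 knockout against 10220, 12351 and 11310 in P5 wild type, and 9964, 11441 and 13084 in P0 knockout against 15314, 11931 and 12563 in P0 wild type. The highest P5 knockout sample lay just above the lowest P5 wild-type sample and the ranges overlapped at P0, with an average difference of -0.21 (SE 0.0967). Syt1 differed by -0.22 (SE 0.101), mostly at P0, where it was -0.39 (SE 0.142) against -0.05 (SE 0.142) at P5. Syn2, the remaining gene of the pairs described above, read 9660, 10846 and 10716 in P5 knockout against 10406, 10504 and 10570 in P5 wild type, and 9390, 9967 and 9551 in P0 knockout against 8803, 10288 and 10410 in P0 wild type, with overlap at both ages and an average difference of -0.02 (SE 0.0761).

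The absence of calls does not show equal levels, since the SE of the average difference ran from 0.0726 to 0.437 over the members. The result at P0 depended on P0 wild-type sample 2: without it, 10 members passed, 2 higher and 8 lower in the knockout, while 21.3% of all genes passed, and in the average over ages 2 members and 5.9% of all genes passed. With array weights 13 members and 24.5% of all genes passed at P0, and 7 members and 16.2% of all genes in the average over ages. Of 14 genes of the meninges, pericytes and fibroblasts, 1 passed between the genotypes at P0, but their summed signals did not overlap, at 172598 to 195824 in P0 knockout against 101221 to 129649 in P0 wild type, and microglial genes, of which 12 were tested and none passed, summed to 47418 to 51442 in P5 knockout against 39244 to 41143 in P5 wild type. Red blood cell genes, of which 7 had a probe set, 4 were tested and none passed at P0, summed to 3576 to 5749 in P0 knockout against 1917 to 2816 in P0 wild type, with a median log2 difference of 1.07. Hox genes, of which 21 were tested and none passed at P5, summed to 36785 to 41640 in P5 knockout against 41841 to 42865 in P5 wild type. These lists were picked out after their sums were seen, and ranges of 3 samples a group can fall apart by chance. The part of these shifts in the genotype differences was not tested.

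**Figure D5:**
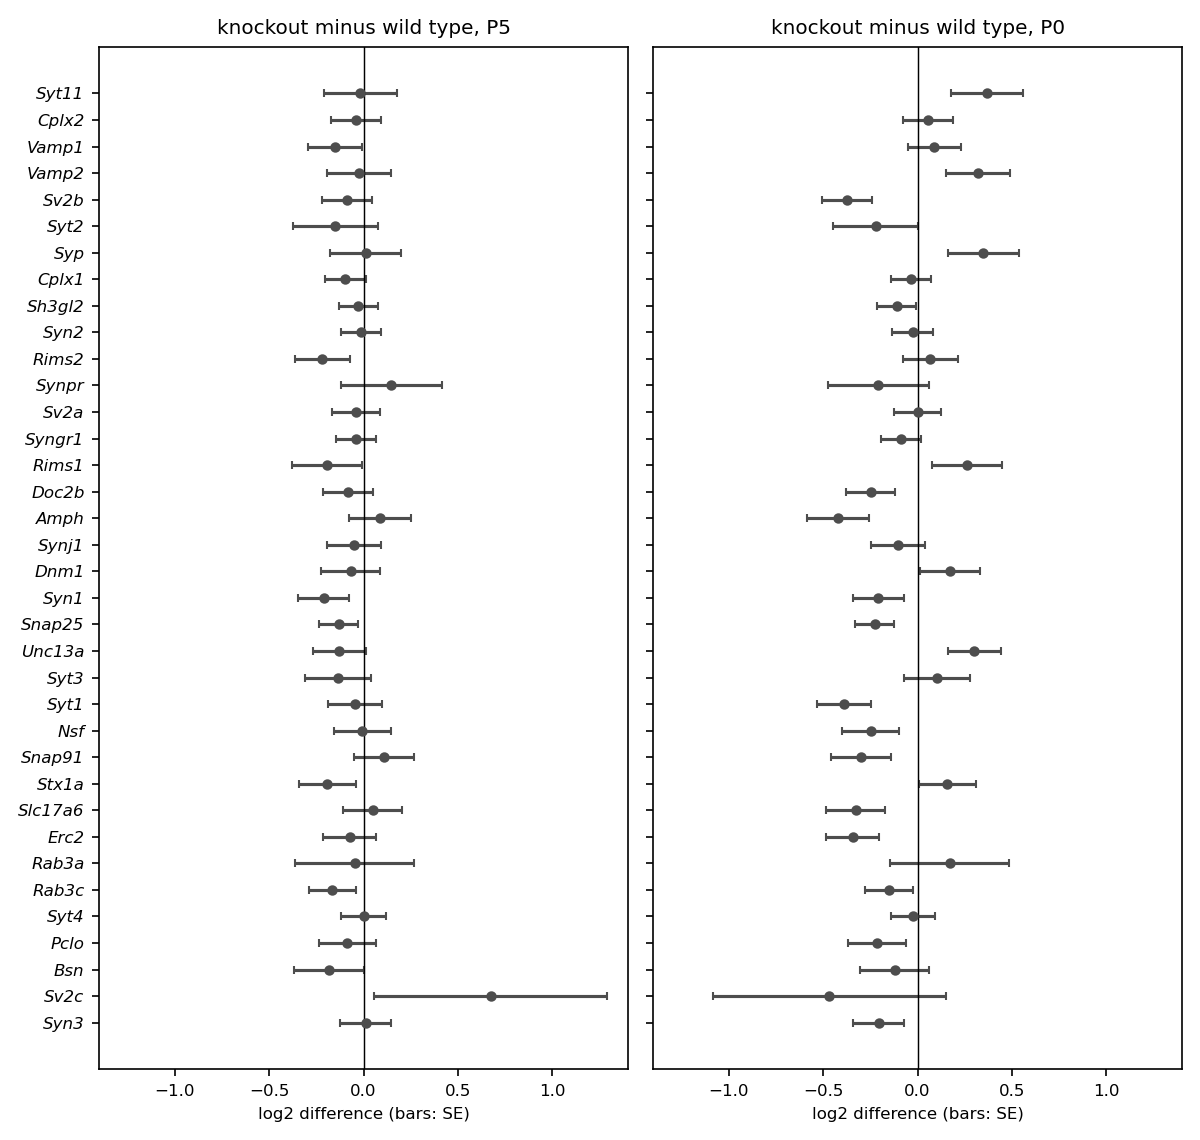
Log2 difference, knockout minus wild type, at P5 (left) and at P0 (right) for the 36 genes, ordered by their difference with age from the largest rise (top) to the largest fall (bottom); bars are SE. No gene passed the threshold at either age, and Sv2c has the widest bars.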

How the data were processed

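Probe-set signals were deposited by the authors as linear intensity values, 45101 probe sets on each of 12 arrays, in which every array has the same trimmed mean of 2500.01 after leaving out 2% of probe sets at each end, as found in the values. No source used here names the software that made them. The values were taken as log2(signal + 16), quantile-normalized and reduced to the brightest probe set of each gene with a mean at or above the 40th percentile. Probe sets were named from the platform annotation: 34945 had 1 symbol, 932 several and 9160 none.

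The 4 groups were fitted in limma 3.58.1 (R 4.3.3) with 1 mean each, no replicate block and an intensity-dependent prior, on 8 residual degrees of freedom. Each adjusted p is Benjamini-Hochberg over all 12600 genes at a threshold of 0.05, except for single probe sets, where it is over all probe sets above the filter. The test was checked on simulated data with noise independent between genes and arrays and with changes larger than those called in the members. That check therefore does not bear on the calls of the members. Differences on this scale understate changes of dim genes, and the number of arrays limits the precision.

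Members, lists, pairs and alternatives were chosen with earlier results of these data known. Values are given per sample for up to 8 of the largest rises (3 passed) and the 8 largest falls with age among changed members, the 4 smallest p-values between genotypes and pairs whose ratio changed. The other genes were given by difference or range, and others named were chosen after their values were seen. Alternatives covered scaling, pseudocount, filter, probe set, prior, array weights, a replicate block and samples left out. Figures were drawn with matplotlib 3.10.9.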

Additional observations from a re-analysis of the deposited data

How the results depend on the processing

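Of 23 alternative settings, array weights estimated by limma changed the counts most. With them 24 members changed with age in the average over genotypes, 23 in wild type, 13 between genotypes at P0, 7 in the average over ages and 6 in the interaction, against 14, 12, 0, 0 and 0 with equal weights, while 46.1%, 47.8%, 24.5%, 16.2% and 12.1% of all genes passed in the same order; these weights were 2.45 for P0 wild-type sample 3, against 0.359 and 0.189 for samples 1 and 2 of that group. In wild type, 5 members changed when only the groups compared were fitted, as did 10.5% of all genes. Without P0 wild-type samples 1 and 2 together, 2 members and 4.51% of all genes differed between genotypes at P0. Leaving out 1 sample at a time gave 0 to 9 members changed with age in the knockout, 4 to 18 in wild type, 0 to 10 between genotypes at P0 and 0 to 2 in the average over ages. The median over the members ranged from -0.249 to -0.128 for age in the average over genotypes in the same way, and the median between genotypes at P0 was -0.0302 with the deposited scaling. Counts over all genes moved with single samples too, as given above for several of these fits. The ranges of member counts therefore do not describe the members alone. With the replicate number as a block (replicate block), 15 members changed with age in the average over genotypes, 12 in wild type and 6 in the knockout, and none between genotypes. Without the block the counts with age were 14, 12 and 7 in the same order. The share of all genes passing with the block is not given here. The deviations of same-numbered samples correlated at -0.125 to 0.418, with 5 of 18 above 0.1. The highest were between the P0 genotypes, at 0.418 and 0.379 for numbers 1 and 2 against 0.0561 for number 3, so not every pair of samples deviated together and the number was not taken as a pairing.

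Bsn, Pclo, Syt4, Syn3, Erc2, Cplx2, Syt11 and Slc17a6 passed in the average over genotypes under all 22 alternatives run for it, Rab3c and Stx1a under 21. Some differences that had not passed changed sign. Without P0 wild-type samples 1 and 2, Rims1 differed by 0.147 with age, and Synpr by -0.344, which passed (limma adjusted p = 0.0163). With array weights, Rims1 differed by 0.0655, Synpr by -0.195 and Syngr1 by -0.00445, and Syngr1 by -0.0112 with the deposited scaling. With the mean of all probe sets, Rims2 differed by -0.226 with age and Snap25 by 0.00405 between genotypes at P5. Leaving out 1 sample gave -0.0351 to 0.0289 for Syngr1, -0.0984 to 0.277 for Synpr and, between genotypes at P5, -0.0758 to 0.00196 for Syt1.

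Among ratios, leaving out 1 sample gave -0.156 to 0.128 for Bsn over Pclo, -0.316 to -0.159 for Cplx1 over Cplx2, -1.94 to -1.6 for Slc17a6 over Slc17a7, -0.388 to -0.242 for Syn1 over Syn2, -0.132 to 0.245 for Syp over Synpr, -0.577 to -0.405 for Syt1 over Syt2 and -0.0621 to 0.166 for Vamp1 over Vamp2. Without P0 wild-type samples 1 and 2 the ratio changed by 0.31 for Bsn over Pclo, 0.105 for Rims1 over Rims2, -1.88 for Slc17a6 over Slc17a7, -0.256 for Syn1 over Syn2 and -0.688 for Syt1 over Syt2. The last 3 no longer passed, with fewer arrangements of the labels to permute. Syt1 over Syt2, Syn1 over Syn2 and Slc17a6 over Slc17a7 passed in 7, 6 and 8 of 17 alternatives, most of which leave out samples and so allow fewer arrangements. With the mean of all probe sets it changed by -0.438 for Cplx1 over Cplx2, which passed, by -0.35 for Syn1 over Syn2, which did not, and by 0.034 for Rims1 over Rims2, -0.148 for Syp over Synpr and -0.108 for Vamp1 over Vamp2. For Bsn over Pclo it was 0.00597 with the deposited scaling and 0.00411 with a pseudocount of 64. The cause of these shifts was not tested, and the dim signals of Slc17a7 and Sv2c and the spread of the P0 samples limit what small differences can show.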
